A study of Sus scrofa with 2 samples.

Results

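The cells described here are the collagen-high cells among cultured porcine adipose-derived stem cells (ADSCs), the fibroblast-like progenitors that grow out of digested fat. They were taken from a pool of droplet barcodes that held at least 5000 UMIs (unique molecular identifiers, which count each captured mRNA molecule once) and 0 UMIs of the 5 mitotic genes TOP2A, CDK1, CCNB1, PLK1 and MKI67. Within each library the pool was ranked by the share of UMIs that came from COL1A1, COL1A2 and COL3A1, and the top 5% were taken. This gave 225 cells in library 1 and 281 in library 2, 506 in all, of a pool of 4495 and 5619 cells (10114) and of 12251 and 12956 deposited barcodes (25207). The lowest 25% of the same ranking, 1124 and 1405 cells, served as the reference and are called collagen-low cells.

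The study profiled healthy Bama miniature pig ADSCs from adipose tissue of the chest, which had been grown for 3 generations within 14 days and frozen, per the labels. The labels give 1 group of 2 libraries, made from polyadenylated RNA with droplet 3′ chemistry, and name no treatment, allele or age. Nothing in them tells if the libraries stem from different animals or cultures. The p-values below therefore measure only how far 2 classes of cells differ beyond the disagreement of these libraries, which may be technical.

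COL1A1 and COL1A2 encode the chains of type I collagen and COL3A1 that of type III collagen, the rope-like fibres that carry the load in skin, tendon and the septa of fat. The chains are made in the endoplasmic reticulum, hydroxylated, folded into triple helices with the help of chaperones, exported in enlarged vesicles, trimmed outside the cell and cross-linked into fibrils. Fibroblasts and mesenchymal progenitors are the main makers of these collagens, and their myofibroblast state also carries contractile proteins such as smooth muscle actin.

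The collagen share chose the cells and is given only as a description. Its median was 1.06% of UMIs in the collagen-high cells of library 1 and 1.62% in library 2, against 0.448% and 0.664% in the pool and 0.256% and 0.380% in the collagen-low cells. The last cell inside the limit had 0.933% and 1.38%, and the first cell outside had 0.933% and 1.38% at the same precision. Over 20 equal bins of this ranking the share rises by construction, and its largest step led into the top bin, from 0.853% to 1.06% and from 1.26% to 1.62%. A class cut from a ranking is a range and not a cell type. The highest single cells reached 3.69% and 4.75%. When cells were chosen on a random part of their UMIs and measured on the remainder, the median share in the remainder was 1.03% and 1.62%. Of the cells in the top 5% by one part, 143 (63.6%) and 216 (76.9%) were also in the top 5% by the other.

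**Figure D1:**
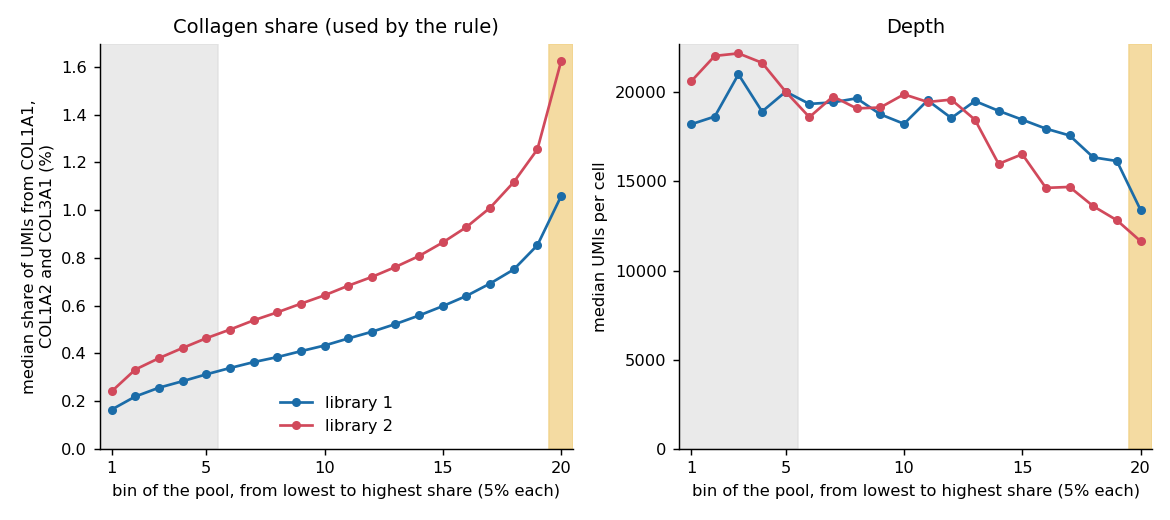
Median collagen share of UMIs (left, %) and median UMIs per cell (right) in 20 equal bins of the pool, from the lowest to the highest share, with 1 line per library; grey marks the lowest 5 bins and yellow the top bin, which holds the collagen-high cells. The share climbs to 1.06% and 1.62% in the top bin, where the median depth is lowest, at 13408 and 11652 UMIs.

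The libraries held 211527905 and 246316928 UMIs. The summed counts behind the main comparison were 3397889 and 3781993 UMIs for the collagen-high and 22172193 and 29309825 for the collagen-low cells. Collagen-high cells were shallower: their median was 13408 and 11652 UMIs against 19565 and 21322, and the share of mitochondrial ribosomal and transfer RNA was 0.180% and 0.174% against 0.135% and 0.108%. After random thinning to 5000 UMIs per cell (no cell of the pool was shallower) the median number of genes was 1988 and 1989 against 1954 and 1976. The libraries share 46 barcodes, and 0 collagen-high cells carry a barcode that is collagen-high in both. Refits with collagen-low cells matched on UMIs are given for some of the list counts and named genes that they change, and the part of the mitochondrial RNA share in the results was not tested.

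Each rule collagen was high also in cells that its own UMIs had not chosen. In cells ranked by the other 2 genes, COL1A1 was at 2672 and 4115 CPM (counts per 1000000 UMIs of the class) in libraries 1 and 2, against 813 and 908 CPM in the lowest 25%. COL1A2 was at 4850 and 7488 against 1460 and 2144 CPM, and COL3A1 at 2149 and 3769 against 669 and 1025 CPM. For each gene both high sums exceeded both low sums. The log2 differences were 1.96 ± 0.12 for COL1A1, 1.76 ± 0.04 for COL1A2 and 1.81 ± 0.09 for COL3A1 (SE, n = 2 libraries). All 3 passed edgeR's quasi-likelihood test at a Benjamini-Hochberg adjusted p of 2.92e-06, 3.35e-11 and 1.76e-95. These p-values come from separate fits, which weighted the spread pooled over genes differently, and do not rank the genes. COL3A1 had the smallest p although its SE was larger than that of COL1A2 at a like difference. Without the library term in the fit none of them passed, with adjusted p = 0.172, 0.140 and 0.180. The genes lie on 3 chromosomes of Sscrofa11.1: COL1A1 on chromosome 12 (26379087 to 26397180), COL1A2 on chromosome 9 (74174484 to 74210407) and COL3A1 on chromosome 15 (93556914 to 93595678). Across single cells of the pool, the shares of COL1A1 and COL1A2 UMIs had a Spearman correlation of 0.45 (n = 4495 cells) and 0.62 (n = 5619), those of COL1A2 and COL3A1 of 0.47 and 0.54, and those of COL1A1 and COL3A1 of 0.29 and 0.43, over cells that share a library and the UMI total as divisor.

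The collagen-high and collagen-low cells were then compared across all genes, as sums per library and class. To be called, a gene had to have an adjusted p under 0.05, to differ by 0.5 or more in size on the log2 scale and to go the same way in both libraries. Of 13609 genes tested, 1026 (7.54%) were called higher in the collagen-high cells and 854 (6.28%) lower, with edgeR and the library as a block. A setting added after the data were seen used the same number of collagen-low cells matched on UMIs. There, 681 of 11090 genes tested were called higher and 453 lower, and 1024 of the 1880 calls were made again in the same direction. Without the library term 0 genes passed in either direction (edgeR, 1731 genes at an unadjusted p under 0.05), and DESeq2 with the library term called 517 and 234. With 4 sums there was 1 residual degree of freedom per gene, so the smallest p-values rest on the spread pooled over genes. Counts for gene lists below stand beside these background shares, and those against UMI-matched cells beside 681 and 453 of 11090 genes. The median log2 difference over all genes was 0.004 in the main comparison.

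Among collagens that the rule did not use, COL5A2, which encodes a chain of the type V collagen that sits inside type I fibrils, was at 585 and 1322 CPM in collagen-high against 300 and 544 CPM in collagen-low cells. Both collagen-high values exceeded both collagen-low values, and the log2 difference was 1.13 ± 0.10 (adjusted p = 1.75e-14, edgeR). The scarce COL5A3 was called as well, from 40 and 26 UMIs, but not against UMI-matched cells. COL5A1, its partner chain, was at 240 and 271 against 191 and 96.2 CPM and did not pass (log2 0.92 ± 0.49, adjusted p = 0.471). The step in COL5A1 was 0.33 on the log2 scale in library 1 and 1.49 in library 2. COL27A1 was at 17.7 and 19.3 against 17.4 and 21.3 CPM and did not pass. Of 6 other fibrillar collagens tested, 2 were higher and 0 lower, with a median log2 of 0.89, and 1 of 4 was higher against UMI-matched cells.

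Network and fibril-associated collagens moved less evenly, with 5 of 13 higher, 1 lower and a median of 0.58. COL6A3, of the beaded filaments that tie cells to fibres, was at 205 and 275 against 83.3 and 116 CPM, a log2 difference of 1.27 ± 0.11. COL16A1 (0.96 ± 0.12) and COL14A1 (0.61 ± 0.12), both found on fibril surfaces, rose too. COL14A1 was at 444 and 549 CPM in collagen-high and 234 and 444 CPM in collagen-low cells, so that the classes all but touched across libraries, and the difference was 0.92 within library 1 and 0.31 within library 2. The transmembrane collagen gene COL13A1 was the one lower, from 4 and 3 UMIs in the collagen-high sums.

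The machinery that folds collagen was higher for 8 of 19 genes and lower for 0, with a median log2 of 0.36. All 19 differences were positive. SERPINH1, the collagen chaperone HSP47, was at 700 and 559 CPM in collagen-high against 322 and 201 CPM in collagen-low cells, with no overlap and a log2 difference of 1.30 ± 0.10 (adjusted p = 1.31e-15, edgeR). P4HA2, a prolyl hydroxylase subunit that stabilises the triple helix, was at 224 and 263 against 110 and 131 CPM (1.02 ± 0.11). The prolyl isomerase gene FKBP14 (0.93), the lysyl hydroxylase gene PLOD2 (0.87), P3H3 (0.78), P3H1 (0.73), FKBP10 (0.62) and PLOD3 (0.56, with 0.31 and 0.75 within the libraries) rose by less. The other 11 members were not called. They included further collagen-modifying genes, such as COLGALT1 (0.44), P4HA1 (0.36), CRTAP (0.31), P3H4 (0.31), PLOD1 (0.27) and P4HA3 (0.01), and the general folding factors P4HB (0.35), PPIB (0.19) and PDIA3 (0.08). COLGALT1 was called higher against UMI-matched cells (0.51). HSPA5, the main chaperone of the compartment, differed by 0.21 and was not called.

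Genes of collagen export and trimming were higher for 12 of 24 and lower for 1, with a median of 0.61. CREB3L1, a membrane-bound transcription factor known for its role in collagen secretion, was at 166 and 203 against 48.7 and 48.7 CPM, a log2 difference of 1.92 ± 0.12 (adjusted p = 1.19e-21, edgeR). Thinned to 5000 UMIs, 55.1% and 62.3% of collagen-high cells held a CREB3L1 UMI, against 21.2% and 21.2% of collagen-low cells (79.1% and 81.8% against 54.5% and 55.1% unthinned). KDELR3, a retrieval receptor of the Golgi, was at 220 and 221 against 76.9 and 88.8 CPM (1.41 ± 0.11). Both genes were higher in each library with no overlap. The cargo receptor MIA3 (0.82), CREB3L2 (0.90), the coat genes SEC13, SEC23A, SEC24D and SEC31A (0.61 to 0.64) and the propeptide protease ADAMTS2 (0.72) were also called, and MRC2, a collagen uptake receptor in the list, rose by 0.84. PCOLCE2, an enhancer of propeptide cleavage, was the one lower, at -0.55. Against UMI-matched cells 11 of 23 members were higher and 0 lower.

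Cross-linking enzymes split. LOXL4 was at 23.8 and 40.5 against 2.89 and 3.45 CPM, a log2 difference of 3.33 ± 0.20 (adjusted p = 7.41e-22, edgeR), and LOX at 139 and 153 against 50.8 and 68.1 CPM (1.31 ± 0.12). LOXL2 rose by 1.23 ± 0.16. LOXL3 went the other way, at 33.8 and 35.4 against 47.4 and 65.2 CPM (-0.69 ± 0.14), and LOXL1 did not pass (-0.28). Thus 3 of 6 members were higher and 1 lower.

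Small leucine-rich proteoglycans, which bind collagen fibrils and set their width, were higher for 7 of 10 and lower for 1, with a median of 1.40. DCN (decorin) was at 1363 and 1420 against 656 and 683 CPM, a log2 difference of 1.06 ± 0.09 that was 1.05 within each library. BGN (0.66 ± 0.09) and LUM (0.62 ± 0.10) moved by less. OMD was at 102 and 123 against 17.3 and 26.5 CPM (2.38 ± 0.13), OGN at 14.7 and 20.6 against 4.01 and 3.58 CPM (2.23 ± 0.23) and ECM2 at 64.7 and 122 against 22.9 and 32.1 CPM (1.73 ± 0.13). ASPN, a collagen-binding relative, was at 124 and 269 against 16.1 and 16.2 CPM but missed the threshold (3.53 ± 0.41, adjusted p = 0.0540), and was called against UMI-matched cells. OGN, OMD, ASPN and ECM2 are neighbours on chromosome 3 of Sscrofa11.1, between 42116521 and 42243746. PRELP fell, at 12.9 and 16.9 against 35.2 and 45.2 CPM (-1.43 ± 0.17).

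**Figure D2:**
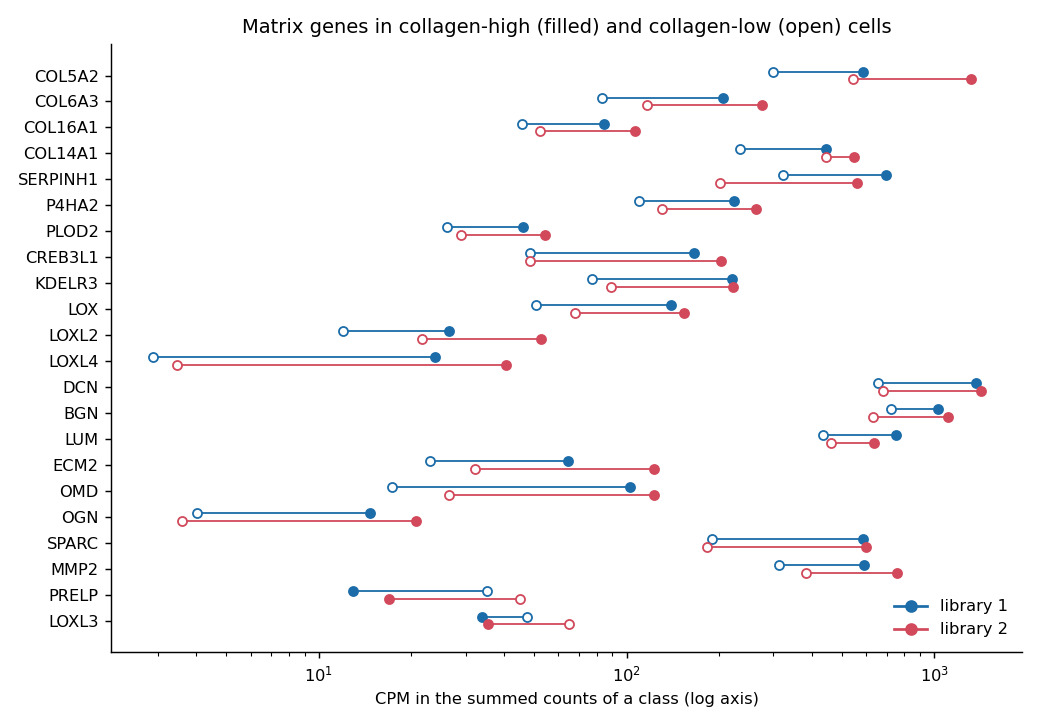
CPM on a log axis of 22 matrix genes in the summed counts of collagen-high cells (filled points) and collagen-low cells (open points), with 1 line per gene and library and no error bars. The lines run to the right for 20 genes and to the left for PRELP and LOXL3 in both libraries.

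Other matrix glycoproteins were higher for 18 of 33 genes and lower for 2, with a median of 0.59; against UMI-matched cells 12 of 31 were higher and 2 lower. SPARC, a collagen-binding protein, was at 586 and 600 against 190 and 182 CPM, a log2 difference of 1.67 ± 0.10 (adjusted p = 2.75e-21, edgeR). Its UMIs were spread widely: thinned, 92.0% and 92.5% of collagen-high cells held one, against 58.5% and 57.5% of collagen-low cells. TGFBI (2.53 ± 0.32, with 1.49 and 2.99 within the libraries) and CTHRC1 (1.75 ± 0.29) rose from low levels, and elastin (ELN) was called from 4 and 7 UMIs. FN1, fibronectin, was at 823 and 1113 against 516 and 723 CPM (0.65 ± 0.09). LTBP2 (-0.76) and TNXB (-0.66) were lower. POSTN, often used as a marker of activated fibroblasts, was at 1006 and 630 against 638 and 762 CPM, so that the libraries went opposite ways and it did not pass.

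Matrix proteases and their inhibitors were higher for 3 of 18 genes and lower for 2. The interstitial collagenase gene MMP1 was at 4.71 and 5.29 CPM in collagen-high against 33.2 and 22.9 CPM in collagen-low cells, a log2 difference of -2.46 ± 0.23 (adjusted p = 8.56e-14, edgeR). The gelatinase gene MMP2 was at 591 and 756 against 313 and 384 CPM (0.95 ± 0.10). MMP1 was lower and MMP2 higher in both libraries with no overlap. ADAMTS12 rose (2.40 ± 0.30) and SERPINE2 fell (-0.998 ± 0.20, with -0.50 and -1.48 within the libraries). TIMP1 (0.17) and TIMP2 (0.14) did not pass. TIMP3, at 411 and 196 against 522 and 486 CPM (-0.82 ± 0.34), did not pass either but was called lower against UMI-matched cells. There, 3 of 18 members were higher and 3 lower.

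The myofibroblast markers were uneven. ACTA2, smooth muscle actin, was at 156 and 220 against 91.6 and 64.6 CPM and did not pass (log2 1.28 ± 0.33, adjusted p = 0.144), although it did against UMI-matched cells. Its UMIs sat in few cells: thinned, 12% and 19.2% of collagen-high cells held one, against 10.6% and 7.62% of collagen-low cells (17.8% and 27.4% against 16.2% and 14.9% unthinned). The 10% of collagen-high cells with the most ACTA2 held 96.8% and 90.7% of its 158 and 302 thinned UMIs. For OMD, with 134 and 166 thinned UMIs, that part was 39.6% and 40.4%. It was 14.96% and 15.07% for COL1A2, which helped to choose the cells and had 6424 and 11637 thinned UMIs. TPM1 (1.47 ± 0.38) and TAGLN (0.56 ± 0.27) did not pass either, and MYL9 was lower in library 1 and higher in library 2. Of 16 contractile genes 6 were higher and 0 lower, with a median of 0.56. Of those 6, CALD1 (0.93) and MYLK (0.96 ± 0.13) were called at higher levels, while CNN1, ACTG2 and LMOD1 stayed under 8 CPM in every sum.

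Signals and receptors of matrix production also differed. In the TGF-beta list 9 of 26 genes were higher and 3 lower, with a median of 0.31, and 5 of 25 were higher and 2 lower against UMI-matched cells. PMEPA1, a target and brake of the pathway, rose by 1.85 ± 0.26 and the ligand gene TGFB2 by 1.07 ± 0.17, whereas TGFB1 fell (-0.65). The secreted inhibitors of related ligands GREM1 (10.0 and 11.4 against 26.5 and 33.6 CPM) and FST (6.18 and 2.91 against 11.3 and 13.6 CPM) fell, by 1.49 and 1.48 on the log2 scale. Among integrins and collagen receptors 7 of 17 were higher and 1 lower, but against UMI-matched cells 2 of 15 were higher and 2 lower. ITGA11, the alpha chain of a receptor for fibrillar collagen, was at 18.8 and 38.9 against 5.55 and 8.19 CPM (2.05 ± 0.18), and ITGA3, of a laminin receptor, was the one lower and was not called against UMI-matched cells (-0.98).

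By the same threshold the 15 largest rises among genes averaging 10 CPM or more were led by APOD (4.01 ± 0.61, adjusted p = 0.0424), DHRS3 (3.95 ± 0.50), GPM6B (3.80 ± 0.26) and LCN2 (3.68 ± 0.19). LCN2, lipocalin 2, an iron-carrier-binding protein of innate defence, was at 109 and 211 against 11.8 and 12.5 CPM. Thinned, 23.6% and 34.5% of collagen-high cells held an LCN2 UMI, against 4.80% and 3.77% of collagen-low cells, and the 10% of collagen-high cells with the most LCN2 held 73.4% and 61.5% of its UMIs. OMD, with 134 and 166 thinned UMIs against 124 and 262 of LCN2, had 39.6% and 40.4% of them in its top 10%, so LCN2 was held by fewer cells than OMD at a like level. APOD, a lipocalin that carries small lipids, was at 15.3 and 45.7 against 2.12 and 1.57 CPM. DHRS3, which reduces retinal, was at 18.5 and 60.5 against 2.48 and 2.42 CPM, and ALDH1A3, which oxidises retinal to retinoic acid, at 35.9 and 53.4 against 7.40 and 6.14 CPM (2.73 ± 0.18). All 3 were higher in library 2 than in library 1 among collagen-high cells, and APOD differed by 2.59 within library 1 and 4.48 within library 2. Unthinned, 13.3% and 17.8% of collagen-high cells held an APOD UMI, 13.8% and 27.4% a DHRS3 UMI and 24.0% and 44.8% a GPM6B UMI. In library 2, the 10% of collagen-high cells with the most UMIs of a gene were 28 cells. They held 93.9% of the 82 thinned UMIs of APOD, 72% of the 75 of DHRS3 and 50.5% of the 107 of GPM6B. In library 1 they were 22 cells for 22, 16 and 34 thinned UMIs, too few to judge the spread.

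The other large rises were LOXL4 and OMD, given above, BMPER (2.65), TNFRSF8 (2.63), PRSS35 (2.57), C4A (2.48), PTN (2.40), SDK1 (2.36), ITGBL1 (2.34) and PDGFRL (2.33). BMPER, a secreted modulator of bone morphogenetic proteins, was at 67.1 and 173 against 15.5 and 20.4 CPM. The complement gene C4A was at 32.1 and 29.1 against 4.78 and 6.11 CPM. PTN, the heparin-binding growth factor pleiotrophin, was at 162 and 249 against 39.4 and 37.1 CPM and was not called against UMI-matched cells, at a log2 of 2.22. The classes did not overlap for any of these 3 genes.

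Genes of growing cells were among those lower in the collagen-high cells. CCND1, cyclin D1, which starts the passage from G1 to S phase, was at 59.7 and 53.9 CPM against 217 and 261 CPM, a log2 difference of -2.07 ± 0.12 (adjusted p = 2.51e-21, edgeR). Thinned, 24.9% and 26.3% of collagen-high cells held a CCND1 UMI, against 56.5% and 63.1% of collagen-low cells (44.9% and 38.8% against 86.0% and 91.5% unthinned). HMGA1, a chromatin protein of growing cells, was at 193 and 112 against 508 and 526 CPM (-1.80 ± 0.20). Neither gene overlapped between the classes.

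Replication genes fell as a group, with 27 of 37 S phase genes lower, 0 higher and a median log2 of -1.28. MCM4, a subunit of the replicative helicase, was at 4.12 and 3.70 against 22.3 and 24.5 CPM (-2.58 ± 0.24, adjusted p = 1.18e-13, edgeR). CDC45 (-2.49) and CDT1 (-2.26) fell as far from levels under 10 CPM. Of 33 G2 and M phase genes outside the rule 14 were lower and 0 higher, with a median of -0.80, and PTTG1, securin, was at 17.4 and 6.08 against 43.3 and 32.2 CPM (-1.75 ± 0.20). Against UMI-matched cells 21 of 34 S phase and 13 of 25 G2 and M phase genes were lower. The rule set 5 mitotic genes to 0 in both classes, and these lists vary with the genes it used. The label non-cycling held only for those 5 genes: 32 collagen-high cells (14.2%) in library 1 and 68 (24.2%) in library 2 also lacked UMIs of the other 10 core cycle genes. Thinned, 43.1% (36.5 to 49.9, exact binomial 95% interval) and 54.4% (48.4 to 60.4) lacked those 10, against 28.2% (25.6 to 30.9) and 32.6% (30.1 to 35.1) of collagen-low cells. These intervals cover the sampling of cells within a library only and test no difference between the classes. In the cells with 0 UMIs of all 15, which were 302 and 483 of the pool, the top 5% were only 15 and 24 cells. Of 6681 genes tested between them and the lowest 25%, 106 were higher and 47 lower. Of the 1096 main calls tested again there, 996 kept their sign and 100 changed it.

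**Figure D3:**
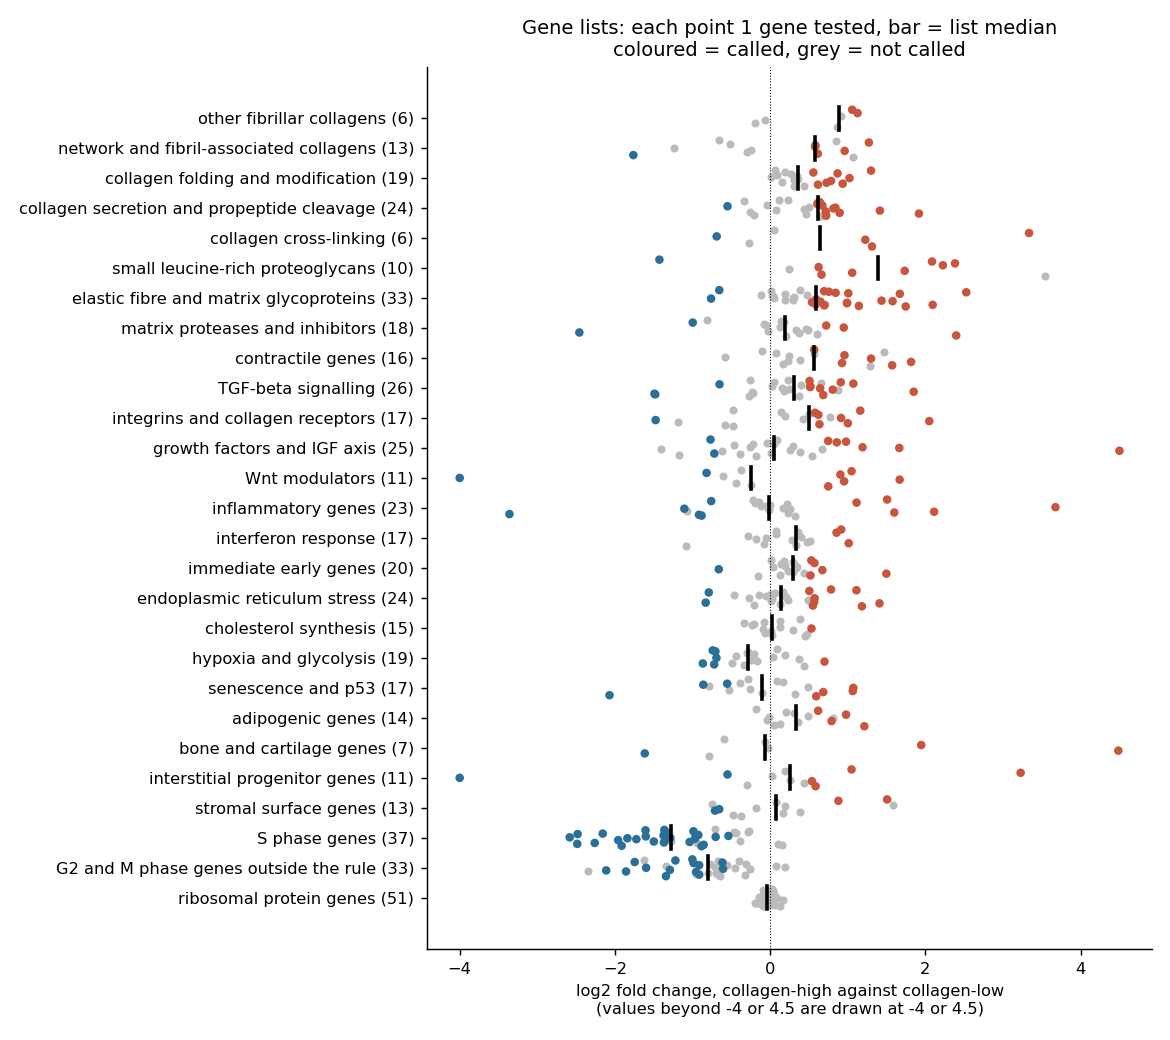
Log2 fold change of collagen-high against collagen-low cells for each gene tested in 27 lists, with the number tested in parentheses; red points were called higher, blue points lower, grey points were not called, and black bars are list medians. The collagen folding and proteoglycan lists lie mostly to the right of 0, the S phase list to the left (median -1.28) and the ribosomal protein list at 0 (median -0.04). The network and fibril-associated collagens lie on both sides, with 7 positive and 6 negative.

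Inflammatory genes went both ways, with 5 of 23 higher, 5 lower and a median of -0.02. Beside LCN2, the chemokine genes CXCL14 (64.7 and 105 against 18.4 and 20.4 CPM, log2 2.11 ± 0.14) and CXCL12 (1.60 ± 0.48, from 9 and 15 UMIs) and the adhesion receptor gene VCAM1 (1.51 ± 0.13) were higher, as was the pentraxin gene PTX3 (1.11). CCL5, a chemokine gene that draws T cells, was at 4.12 and 1.32 against 34.9 and 19.99 CPM (-3.36 ± 0.26, adjusted p = 8.82e-17, edgeR). CCL2 was at 923 and 355 against 1550 and 721 CPM (-0.88) and IL33, an alarmin, at 177 and 158 against 335 and 386 CPM (-1.11). CCL2 overlapped between the classes across libraries but was lower within each.

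The remaining large falls were the metallothionein gene MT-2B (61.5 and 32.0 against 296 and 288 CPM, log2 -2.69 ± 0.19), the replication clamp-associated gene PCLAF (-2.28), the small heat shock gene CRYAB (-2.28), CYP2C91 (-2.12), ESM1 (-2.06, with -1.29 and -3.37), NGEF (-1.97), CD70 (-1.94, with -1.27 and -2.60 within the libraries), VGF (-1.77) and HPGD (-1.77). ESM1 and HPGD were not called against UMI-matched cells. In the hypoxia and glycolysis list 5 of 19 genes were lower and 1 higher, with a median of -0.28, and 2 were lower and 1 higher against UMI-matched cells, with a median of -0.13. PKM, pyruvate kinase, was at 1932 and 1487 against 2621 and 2918 CPM (-0.70 ± 0.10, with -0.44 and -0.97 within the libraries), and the glucose transporter gene SLC2A1 at 20.01 and 16.4 against 30.8 and 29.9 CPM (-0.74 ± 0.17). SLC2A1 was not called against UMI-matched cells (-0.57).

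Within the stress lists, 8 of 24 endoplasmic reticulum stress genes were higher and 2 lower, with a median of 0.15. The members that rose most were targets of the amino acid and integrated stress response: CHAC1 (99.8 and 106 against 40.8 and 37.0 CPM, 1.41 ± 0.13), ASNS, asparagine synthetase (147 and 165 against 66.8 and 70.3 CPM, 1.18 ± 0.11), and TRIB3 (1.11 ± 0.14). The folding factor genes CRELD2 (-0.83) and SDF2L1 (-0.79) fell. Of 20 immediate early genes 5 were higher and 1 lower, with EGR1 at 168 and 258 against 62.3 and 87.4 CPM (1.50 ± 0.11). Of 17 senescence and p53 genes 4 were higher and 3 lower, with a median of -0.11. The higher ones were the growth arrest genes CDKN1C (1.06 ± 0.15), GADD45A (1.07 ± 0.20, with 0.66 and 1.48 within the libraries), CDKN1B (0.68) and BTG1 (0.59), and the lower ones CCND1, the nuclear lamin gene LMNB1 (-0.86) and the p53 regulator gene MDM2 (-0.55). CDKN1A, at 83.6 and 76.2 against 87.3 and 85.1 CPM, did not pass.

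Levels of several genes moved along the whole ranking. SPARC rose from 158 and 137 CPM in the lowest of 20 bins to 281 and 277 CPM in bin 10 and 475 and 466 CPM in bin 19, before the 586 and 600 CPM of the collagen-high bin. CCND1 fell over the same bins from 278 and 311 to 149 and 182 and then 63.2 and 85.6 CPM. LCN2 went from 6.84 and 9.77 CPM in the lowest bin to 20.4 and 22.2 CPM in bin 10 and 105 and 105 CPM in bin 19. ACTA2 followed no such order, and its largest bin value in library 2 lay outside the collagen-high bin. These are descriptions of 1 ranking, and bins of a library share its cells and preparation.

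**Figure D4:**
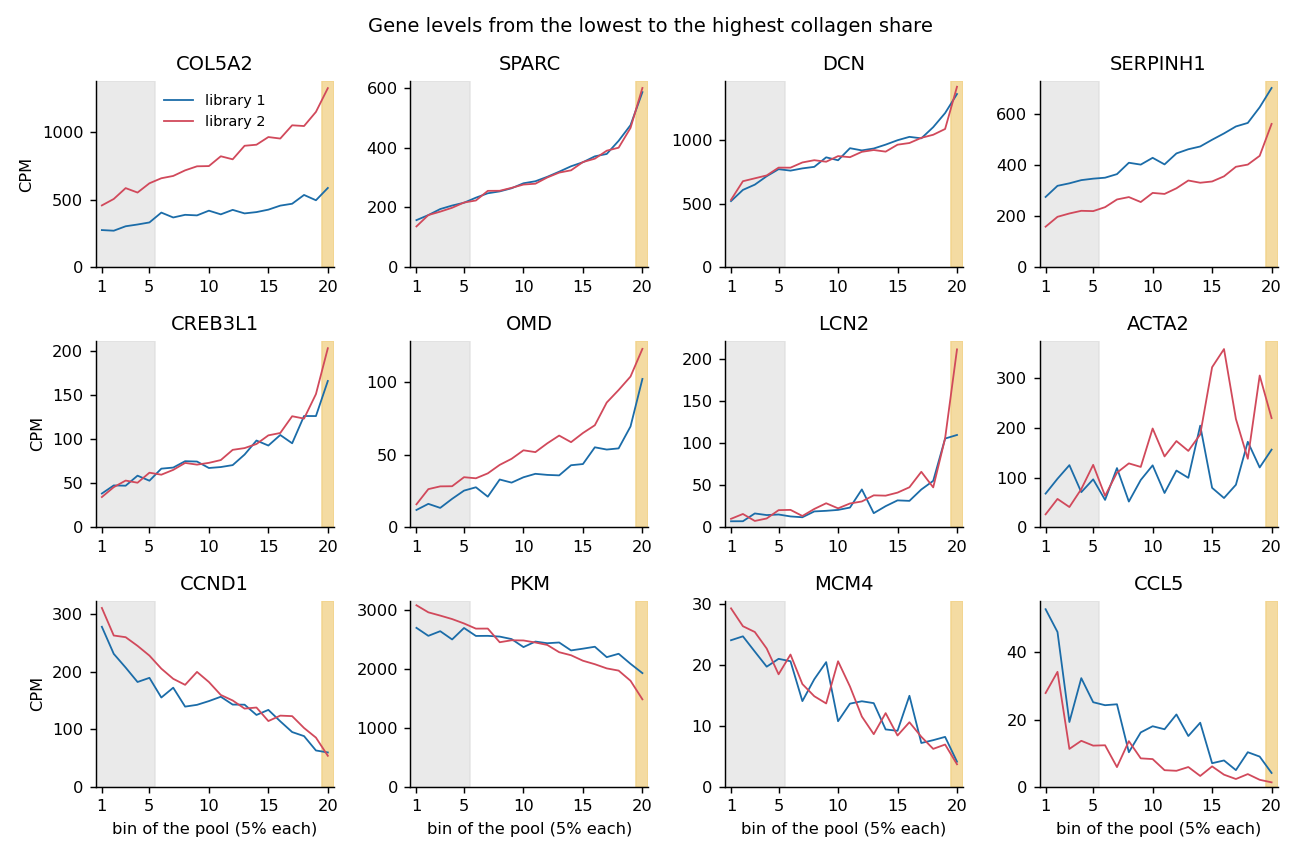
CPM of 12 genes in 20 equal bins of the pool from the lowest to the highest collagen share, with 1 line per library; grey marks the lowest 5 bins and yellow the collagen-high bin. COL5A2, SPARC, DCN, SERPINH1, CREB3L1 and OMD climb across the bins, CCND1, PKM and MCM4 decline, LCN2 rises mostly in the last bins, and ACTA2 is irregular.

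ACTA2-high cells, the top 5% of the pool by ACTA2 share, included 17 (7.56%) and 20 (7.12%) of the collagen-high cells, against 5% of the pool as a whole, and these cells were left out of the comparison. Of 10988 genes tested 719 (6.54%) were higher in the collagen-high cells and 557 (5.07%) lower, and 0 passed without the library term (edgeR, 1130 genes at an unadjusted p under 0.05), while DESeq2 called 191 and 132. In this comparison and the next, edgeR gave the spread pooled over genes full weight for the median gene. Such a gene's own disagreement between the libraries did not enter its SE or p. All 14 contractile genes tested, ACTA2 of the rule not counted, were lower in collagen-high cells, with a median of -1.73. ACTA2 chose the reference and the cells left out, so genes that vary with ACTA2 were set apart partly by that choice. The collagen-high cells compared held 17.0 and 37.3 CPM of ACTA2, against 156 and 220 CPM in the whole class. TAGLN was at 161 and 351 CPM in collagen-high against 1958 and 2124 CPM in ACTA2-high cells (-3.14 ± 0.14), and MYL9 at 47.5 and 83.7 against 479 and 517 CPM (-3.01 ± 0.14). With the shared cells kept in both classes, TAGLN was at 312 and 487 against 1960 and 2130 CPM. CCND1 was also lower, at 55.5 and 49.0 against 248 and 265 CPM (-2.35 ± 0.14), and 18 of 33 S phase genes were lower and 0 higher. Collagen-high cells had more CLEC3B, tetranectin (49.7 and 37.3 against 3.09 and 2.15 CPM, 3.99 ± 0.27), ALDH1A1 (2.62 ± 0.21), COL6A3 (1.50 ± 0.14), LOX (1.28 ± 0.15) and DCN (0.75 ± 0.11). COL5A2 did not pass, at 555 and 1283 against 581 and 1083 CPM (0.04 ± 0.11), and neither did SERPINH1 (0.35 ± 0.12).

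ASPN and OMD high cells, the top 5% by the summed share of these 2 proteoglycan genes, overlapped more, with 58 (25.8%) and 75 (26.7%) cells in both classes. With those left out, 143 of 10551 genes (1.36%) were higher in the collagen-high cells and 135 (1.28%) lower. Without the library term 0 passed (edgeR, 313 genes at an unadjusted p under 0.05). DESeq2, which left some genes without an adjusted p, called 16 and 20. Of 14 contractile genes, 7 were lower in the collagen-high cells and 0 higher. ACTA2 was at 64.4 and 92.7 against 290 and 357 CPM (-2.11 ± 0.10), and TAGLN at 249 and 306 against 665 and 798 CPM (-1.46 ± 0.07). The gap was smaller with the shared cells kept in both classes. ACTA2 was then at 156 and 220 against 313 and 395 CPM, and TAGLN at 312 and 487 against 619 and 824 CPM. COL6A3 was higher in the collagen-high cells, at 203 and 294 against 87.4 and 129 CPM (1.14 ± 0.09), as were APOD (2.62 ± 0.25, with 1.02 and 3.28 within the libraries) and CLEC3B (1.25 ± 0.19). DESeq2 called COL6A3 but gave no adjusted p for APOD or CLEC3B, so it could not call them. DCN (0.09 ± 0.06), COL5A2 (0.14 ± 0.07) and LCN2 (0.29 ± 0.11) did not pass, and of 25 S phase genes 0 were called in either direction. GREM1 was lower here too, at 11.96 and 10.97 against 29.9 and 48.5 CPM (-1.83 ± 0.21), though DESeq2 gave no adjusted p for it. The comparisons share the collagen-high cells, so their values are given side by side only.

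**Figure D5:**
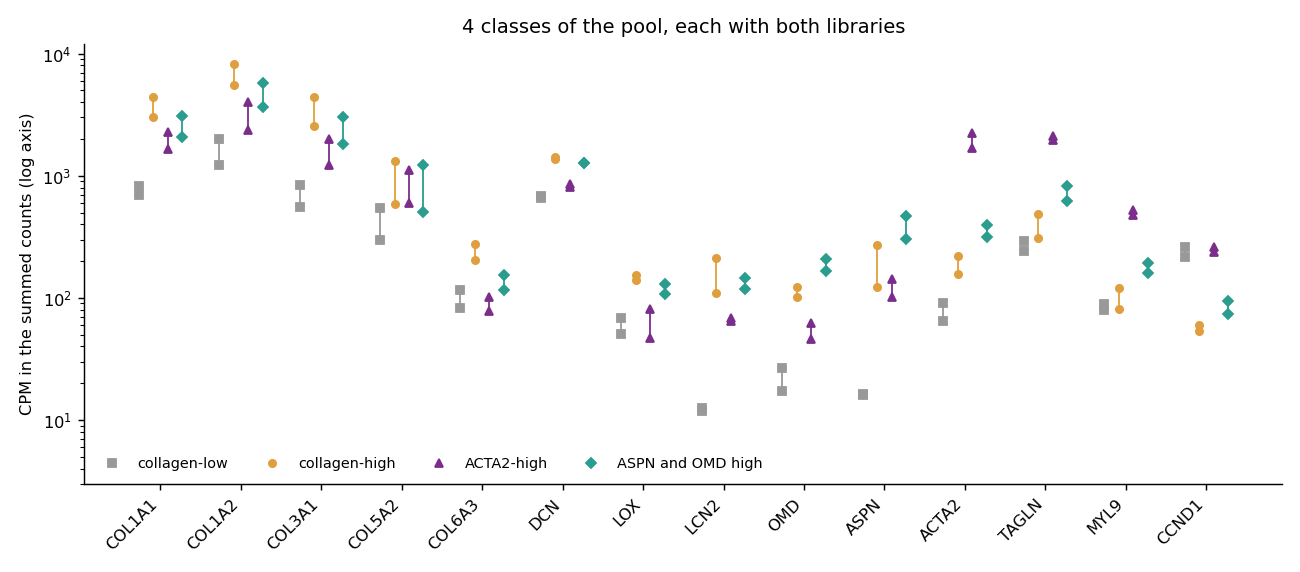
CPM on a log axis of 14 genes in the summed counts of 4 classes of the pool, each joining its 2 libraries, with cells that belong to several classes kept in each. ACTA2, TAGLN and MYL9 are highest in ACTA2-high cells, the 3 rule collagens and COL6A3 in collagen-high cells, and CCND1 is lower in collagen-high cells than in the collagen-low and ACTA2-high cells.

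Markers of 8 other cell types were at or near 0 in the collagen-high cells, and those of 5 more were present at higher levels. The summed level of 8 adipocyte markers was 6.18 and 3.17 CPM, of 9 lymphocyte markers 2.65 and 0.529 CPM, of 7 epithelial markers 0.589 and 0 CPM, of 6 Schwann cell markers 1.47 and 0 CPM, of 7 muscle progenitor markers 1.18 and 0.264 CPM, of 5 erythroid markers 0.294 and 0 CPM, of 7 cartilage markers 0.589 and 0.264 CPM and of 6 bone-forming cell markers 3.83 and 3.97 CPM. The bone-forming list summed to 8.57 and 7.88 CPM in collagen-low cells. Its member PHEX was lower in collagen-high cells (-1.35 ± 0.35), also against UMI-matched cells. Of the endothelial list ERG alone made up 61.8 of 67.1 and 105 of 107 CPM, with CDH5, CLDN5, KDR and TIE1 at 0 UMIs in both libraries, and the list summed to 57.3 and 83.9 CPM in collagen-low cells. EMCN of that list was lower, at 2.65 and 1.59 against 9.16 and 9.66 CPM (-2.16 ± 0.33), also against UMI-matched cells. CD14 made up 25.9 of 31.2 and 19.8 of 22.2 CPM of the macrophage list, with CD163, FCER1G and MARCO at 0, and that list summed to 37.0 and 25.6 CPM in collagen-low cells. In the mural list, which summed to 33.3 and 62.7 CPM against 24.6 and 31.8 CPM in collagen-low cells, ABCC9 (1.74 ± 0.18) and KCNJ8 (0.96 ± 0.27) were higher, CSPG4 lower (-0.66 ± 0.22) and RGS5, HIGD1B and STEAP4 at 0. KCNJ8 and CSPG4 were not called against UMI-matched cells. The mesothelial list summed to 24.7 and 6.87 CPM against 28.3 and 19.4 CPM, with BNC1, LRRN4 and UPK3B at 0. CALB2 of that list was lower (-0.67 ± 0.25) but was not called against UMI-matched cells. FMOD, a fibroblast gene too, made up most of the tendon list (141 of 153 and 106 of 116 CPM, against sums of 109 and 103 CPM in collagen-low cells), in which MKX rose (1.88 ± 0.33) while SCX held 0 and 1 UMIs. The stromal markers THY1 (723 and 526 CPM), PDGFRA (187 and 269 CPM) and CD44 (174 and 114 CPM) were present. CD44 did not pass against collagen-low cells (-0.48) but was called lower against UMI-matched cells (-0.68).

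The collagen-high cells of the libraries also differed from each other, which has no replicate check, as 1 library stands on each side. COL5A2 was at 585 CPM (560 to 611, exact Poisson 95% interval) in library 1 and 1322 CPM (1285 to 1359) in library 2, and ASPN at 124 (112 to 136) and 269 CPM (253 to 287). HSPA5 went the other way, at 1041 (1007 to 1076) and 286 CPM (269 to 303), as did CXCL2, at 228 (213 to 245) and 9.52 CPM (6.67 to 13.2). The intervals cover counting error only. HSPA5, at 849 and 263 CPM, and COL5A2, at 300 and 544 CPM, differed in the same direction between the libraries in collagen-low cells.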

How the data were processed

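Single-cell libraries of cultured ADSCs were analysed from the deposited matrices, which hold UMI counts as whole numbers for every gene and barcode, not normalized. Per the file headers the authors used Cell Ranger 7.0.0, and per the submitters' processing notes version 7.00 with Sscrofa11.1. Neither the annotation nor the cell-calling setting is given in the sources used here. No barcode held fewer than 500 UMIs. All 23 mitochondrial genes are ribosomal or transfer RNA genes, so the mitochondrial share leaves out mitochondrial mRNA. Gene positions come from RefSeq (Sscrofa11.1).

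Python 3.11.15 (numpy 2.4.6, scipy 1.17.1, pandas 2.3.3, matplotlib 3.10.9) ranked the cells and summed their counts per library and class. Sums were tested with edgeR 4.0.16 in R 4.3.3 (quasi-likelihood F test, TMM, filterByExpr, robust, library as block, because every class is drawn from both libraries), with DESeq2 1.42.0 as an alternative and limma 3.58.1 loaded by edgeR. The script was tested on simulated data. The SE was derived from the fold change and its F statistic. Ratios within 1 library used a pseudocount of 0.5 CPM. No filter on cells beyond the rule was applied, and doublets were not called.

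The members and the 41 gene lists (652 of 674 genes found by symbol) were chosen with earlier results of these data known. Named genes are the 15 largest calls in each direction with a mean of at least 10 CPM, the 4 largest calls of each list, all members at 10 CPM or more of 4 collagen and proteoglycan lists, and the 6 largest per direction against the other classes. Further genes of the lists, and those compared between libraries, were named after their values were seen.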

Additional observations from a re-analysis of the deposited data

How the results depend on the processing

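Without the library term the collagen-high against collagen-low counts fell to 0 higher and 0 lower, and so did those against ACTA2-high (0 and 0) and ASPN and OMD high cells (0 and 0), while the rule collagens chosen by the other 2 genes kept log2 values of 1.99, 1.77 and 1.83 for COL1A1, COL1A2 and COL3A1 (adjusted p = 0.172, 0.140 and 0.180, edgeR). DESeq2 called 517 and 234, 191 and 132, and 16 and 20 genes in the 3 comparisons. Requiring 0 UMIs of 15 core cycle genes left 15 and 24 collagen-high cells, and 106 and 47, 0 and 3, and 18 and 17 genes. Cells of 10000 to 40000 UMIs gave 464 and 354 against ACTA2-high and 44 and 47 against ASPN and OMD high cells, and choosing on part of the UMIs gave 392 and 288, and 48 and 47. Against collagen-low cells the counts were 414 and 301 with the 70% between as reference, 432 and 354 by COL3A1 alone, 681 and 453 with UMI-matched cells, and 496 lower by COL1A2 alone; the other settings moved them by less than 1.5 times. The filter of at least 1000 genes and at most 15% mitochondrial UMIs removed no cell of the pool. Of the genes named, 7 values changed sign: CYP2C91 (0.18), LOXL2 (-0.19), CRELD2 (0.13) and ACKR3 (-0.11) with 15 core genes at 0, ACTG2 (-0.0225) against the 70% between, and GREM1 (0.35) and KLF2 (-0.0740) by COL3A1 alone. The cause was not tested, except that fewer cells and genes entered where the pool was cut. With 1 library left out there is no spread and no test: 27 values of named genes moved by 1 SD or more without library 1 and 47 without library 2, and 0 changed sign. Of 131 genes called and named against collagen-low cells, 32 differed by over 1.5 times from the reported log2 value within 1 library or both, 17 of them at a mean of 10 CPM or more.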

Other observations

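Of 25 genes of growth factors and the insulin-like growth factor axis 6 were higher and 2 lower, with a median log2 of 0.05. IGF1 held 14 and 71 UMIs in the collagen-high sums (4.12 and 18.8 CPM) and 3 and 2 UMIs in the much deeper collagen-low sums (0.135 and 0.0682 CPM). Its binding protein genes IGFBP4 (1.66 ± 0.26) and IGFBP5 (1.19 ± 0.18, with 1.62 and 0.78 within the libraries) were higher on the log2 scale, while its receptor gene IGF1R (0.25), IGF2 (0.66), IGFBP2 (-1.41), IGFBP6 (-0.26) and IGFBP7 (0.29) were not called. The platelet-derived growth factor genes PDGFRA (0.98 ± 0.11), PDGFD (0.86) and PDGFRB (0.75) were higher, and VEGFC (-0.77) and FGF2 (-0.72) lower. Among Wnt modulators 5 of 11 were higher and 2 lower, and 3 of 10 higher and 0 lower against UMI-matched cells. The secreted Wnt antagonist gene SFRP2 was at 1879 and 2374 against 1099 and 1086 CPM (0.95 ± 0.09) and SFRP4 at 65.6 and 94.9 against 24.6 and 25.5 CPM (1.67 ± 0.14). TNFRSF19 had 0 UMIs in both collagen-high sums and 28 and 30 in the collagen-low sums, at least 2.70-fold lower when 3 UMIs over both libraries together stand for 0.

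Markers of the interstitial progenitors of connective tissue were mixed, with 4 of 11 higher and 2 lower, and 2 of 10 higher and 1 lower against UMI-matched cells. PI16 was at 5.30 and 5.82 against 0.722 and 0.478 CPM (3.23 ± 0.47), and LY6E held 0 and 1 UMIs against 56 and 87. LY6E was not among the genes tested against UMI-matched cells, and PCOLCE2, the other lower gene, was not called there. The 1 lower against UMI-matched cells was thus a different member. Of 7 bone and cartilage genes MGP (15 and 26 against 4 and 9 UMIs) and SOX6 (1.95 ± 0.22) were higher and MATN4 lower (-1.62 ± 0.39). Of 14 adipogenic genes 4 were higher and 0 lower, APOE by 1.21 ± 0.15 and FABP5 by 0.79 ± 0.12, and PPARG did not pass (0.20). Of 17 interferon response genes IFI6 (1.01), USP18 (0.91) and OAS2 (0.85) were higher and 0 lower, but none of those 3 was called against UMI-matched cells, where 1 of 13 was higher. Of 15 cholesterol synthesis genes only INSIG1 was called (0.52 ± 0.13), and 3 were higher against UMI-matched cells. Of 13 stromal surface genes THY1 (0.88 ± 0.10) and VCAM1 were higher and CD9 (-0.71 ± 0.14, with -0.36 and -1.08 within the libraries) and CSPG4 lower, but neither CD9 (-0.55) nor CSPG4 (-0.76) was called against UMI-matched cells. Of 51 ribosomal protein genes 0 were called (edgeR). The calls in these paragraphs are against the same background of 7.54% higher and 6.28% lower. Those against UMI-matched cells are against 681 higher and 453 lower of 11090 genes tested.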
